A study of Homo sapiens with 6 samples.

Results

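The p24 family, encoded by the TMED genes, was examined in total RNA of HCT116, an established line of human colorectal cancer cells. The unedited cells (WT) and cells with N106S on both copies of EIF6 (MUT) gave 3 libraries each. The members are the rows of the deposited count table named TMED1, TMED2, TMED3, TMED4, TMED5, TMED7, TMED8, TMED9 and TMED10, which are 9 of 59251 gene symbols. All 9 passed the filter on low counts, which left 14808 genes for testing. eIF6 is a factor that holds large ribosomal subunits apart from small ones, and by its title the study relates its targeting to idle ribosomes and to exit from mitosis. The labels describe the mutant cells as clones edited with CRISPR/Cas9, with no further treatment in either group. Nothing in them states what a replicate was, a culture or a clone, so a p-value here reflects the spread among these libraries alone, possibly technical, and effects of the edit and of a clone cannot be told apart. In bulk RNA, a shift in the makeup of the culture and a change in RNA per cell cannot be told apart either.

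The family was chosen by the difference between MUT and WT itself: TMED9 was selected on its log2 fold change and adjusted p, and the other members follow it by name. The values of that contrast are therefore given for the members as a description, without p-values, and no weight is placed on them.

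p24 proteins are small membrane proteins that shuttle between the endoplasmic reticulum and the Golgi apparatus. Their luminal GOLD domain and coiled coil face the cargo, and a short cytosolic tail binds the COPII coat of outgoing and the COPI coat of returning vesicles. Members of the alpha (TMED4, TMED9), beta (TMED2), gamma (TMED1, TMED3, TMED5, TMED7) and delta (TMED10) subfamilies assemble with one another, and they are best known for carrying proteins with a glycosylphosphatidylinositol (GPI) anchor out of the endoplasmic reticulum. TMED8 has a GOLD domain but is usually set apart from these subfamilies.

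The end of the coding sequence is shown for the members on which the values below turn, because in p24 proteins it encodes the cytosolic tail with its coat-binding signals. That of TMED8, which lacks the p24 membrane span, is shown for contrast. Each line gives the last 60 bases (20 codons) before the stop codon in the GENCODE v29 principal transcript (GRCh38), 5′ to 3′ on the coding strand. Capitals mark paired codons for phenylalanine, and paired codons for lysine that end 2 or 3 codons before the stop codon.
TMED9: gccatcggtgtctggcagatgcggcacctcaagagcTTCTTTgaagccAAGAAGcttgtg
TMED4: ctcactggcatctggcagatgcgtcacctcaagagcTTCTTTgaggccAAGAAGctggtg
TMED10: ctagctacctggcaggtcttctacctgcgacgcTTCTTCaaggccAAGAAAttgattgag
TMED2: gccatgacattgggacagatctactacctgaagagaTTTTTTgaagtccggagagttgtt
TMED8: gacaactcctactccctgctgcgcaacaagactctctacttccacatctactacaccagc

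These ends lie at chr5:177595354-177595413 (plus strand) for TMED9, chr7:44579482-44579541 (minus) for TMED4, chr14:75134888-75134947 (minus) for TMED10, chr12:123596667-123596726 (plus) for TMED2 and chr14:77341774-77341833 (minus) for TMED8. TMED9, TMED4 and TMED10 carry both signals, TMED2 carries the phenylalanine pair without the lysine pair, and TMED8 carries neither. The coding sequence of TMED8 has 325 codons, against 201 in TMED2 and 235 in TMED9. TMED4 and TMED9 had the most similar coding sequences among the 28 pairs of the other 8 members (75.5% of aligned bases identical), followed by TMED3 and TMED7 (67.0%). The other 26 pairs lay between 47.6% and 60.0%.

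The coding sequences of TMED4 and TMED9 share no run of bases longer than 20, and those of TMED3 and TMED7 none longer than 21. No word of 50 bases of any member's principal transcript occurs in a transcript of another member. Reads of that length from the principal transcripts would therefore tell the members apart. All 50-base words of the principal transcripts of TMED9, TMED3 and TMED8 were unique among GENCODE transcripts. That of TMED9 has 1473 bases, while the authors' quantification implies a length of 2463 to 2476 bases for this gene. Sequence of TMED9 outside the principal transcript was not searched. Of the words of TMED1, 56.5% lie opposite a transcript of DNM2, and of those of TMED7, 23.9% also occur in the readthrough gene TMED7-TICAM2. TMED5 shared 10.4% with CCDC18 and TMED2 9.44% with AC055713.1, both on the opposite strand, TMED10 3.07% with other genes, 2.62% with ZNF252P alone, and TMED4 1.14%. Whether the counting used the strand is not given in the sources used here, so the values of TMED1 in particular may include reads of a gene on the opposite strand. The words that TMED7 shares with TMED7-TICAM2 lie on the same strand. Values of TMED7 may thus include reads of that gene whether or not the strand was used.

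Total counts per library ranged from 53986494 to 87656970, of which small structural RNAs (7SL, 7SK, RPPH1 and RMRP) left 10252501 to 21984081. The 9 members held 1885 to 6108 counts per library, and single members between 56 (TMED8, WT replicate 3) and 1350 (TMED2, MUT replicate 2). Ribosomal RNA genes took 3.91% of counts in MUT replicate 2 and 1.16% in WT replicate 1, against at most 0.234% in the other 4 libraries, and the members' log2 fold changes are also given without these 2 libraries. EIF6 itself was at 43.3, 47.9 and 47.4 CPM (counts relative to the scaled library size) in WT and at 36.7, 30.7 and 35.7 in MUT. The edit changes an amino acid, so this level does not check the genotype. The epithelial keratins KRT8 and KRT18 had at least 5004 counts in every library, EPCAM at least 414 and the intestinal transcription factor CDX2 at least 147. CDH1 (E-cadherin) had 35 to 54 counts in WT and 14 to 31 in MUT (log2 fold change -1.23, SE 0.37, edgeR adjusted p = 0.119), and KRT20, VIL1 and LGALS4 had at most 11. The summed counts of 10 fibroblast, blood and endothelial markers were 114 to 161 in WT and 198 to 282 in MUT. PTPRC, CD3E and HBB were at 0 in every library and the other 4 below the filter at 3 counts or fewer, so that the sums came from COL1A1, COL3A1 and CD68.

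TMED9, an alpha member, lies on chromosome 5 (177592203 to 177597242, GRCh38). Its level was 4.43, 5.44 and 4.37 CPM in WT replicates 1 to 3, and 10.51, 10.85 and 10.64 CPM in MUT replicates 1 to 3. The lowest MUT library was nearly 2 times the highest WT library. The log2 fold change of MUT over WT was 1.17 (SE 0.12), a 2.24-fold difference, and 1.44% of all tested genes had a larger value. Without MUT replicate 2 it was 1.17, and without both libraries high in ribosomal RNA 1.12. The spread between MUT libraries was 1.64% of the mean, below the 3.55% that counting error alone would give on average, whereas in WT it was 12.6% against 6.06%.

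TMED4, the other alpha member (chromosome 7, 44577894 to 44582231), stood at 4.16, 4.16 and 4.37 CPM in WT and at 5.73, 5.82 and 6.12 CPM in MUT. The groups lay apart, with a spread within each group below counting error, and the log2 fold change was 0.48 (SE 0.10) (1.39-fold). Without MUT replicate 2 it was 0.51, and without both libraries high in ribosomal RNA 0.49.

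TMED10, the delta member (chromosome 14, 75131469 to 75176612) and a partner of TMED2 in transport of GPI-anchored proteins, was at 7.94, 10.02 and 7.96 CPM in WT and at 12.02, 13.30 and 11.73 CPM in MUT. WT replicate 2 was the highest WT library, as for TMED9, and still lay below every MUT value. The log2 fold change was 0.51 (SE 0.13), or 0.48 without MUT replicate 2 and 0.41 without both libraries high in ribosomal RNA.

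TMED2, the beta member (chromosome 12, 123584552 to 123598582), was at 15.61, 13.52 and 10.07 CPM in WT and at 12.48, 13.86 and 14.43 CPM in MUT. The MUT values fell inside the WT range. WT libraries differed by 21.4% of their mean, where counting error gives 3.75%, with WT replicate 1 highest and WT replicate 3 lowest. The log2 fold change of 0.05 (SE 0.17) turned to -0.089 without WT replicate 3 and was 0.20 without both libraries high in ribosomal RNA.

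Of the 4 gamma members, TMED1 alone had groups that did not overlap. TMED1 (chromosome 19, 10832067 to 10836212) was at 2.62, 3.21 and 2.96 CPM in WT and at 3.38, 3.26 and 3.94 CPM in MUT. WT replicate 2 and MUT replicate 2 lay close together, and the log2 fold change was 0.26 (SE 0.14), or 0.34 without MUT replicate 2 and 0.26 without both libraries high in ribosomal RNA. DNM2 lies opposite part of TMED1 in GENCODE transcripts, while its RefSeq coordinates end 0.2 kb from TMED1. The log2 fold change of DNM2 was 0.15 (SE 0.11, edgeR adjusted p = 0.536). TMED3 (chromosome 15, 79311112 to 79413886) spanned 7.43 to 8.93 CPM in WT and 8.16 to 8.79 CPM in MUT, with a log2 fold change of 0.06 (SE 0.11), or 0.10 without both of those libraries. TMED7 (chromosome 5, 115613210 to 115626036) spanned 3.11 to 3.87 CPM in WT and 3.69 to 3.98 CPM in MUT, with 0.10 (SE 0.13), or 0.195 without them. Both overlapped between the groups.

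TMED5 (chromosome 1, 93149742 to 93180413) was at 2.72, 2.08 and 1.43 CPM in WT and at 2.32, 2.51 and 2.48 CPM in MUT. Its WT libraries varied by 31.0% of the mean, against 9.64% from counting error, and stood in the same order as those of TMED2. The log2 fold change of 0.21 (SE 0.22) became 0.44 without both libraries high in ribosomal RNA and 0.03 without WT replicate 3.

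TMED8 (chromosome 14, 77335021 to 77377094), which lacks both tail signals, was at 1.43, 1.18 and 1.30 CPM in WT and at 1.03, 1.19 and 1.19 CPM in MUT. The ranges overlapped, and its log2 fold change of -0.20 (SE 0.18) was the 1 value below 0. It was -0.14 without both libraries high in ribosomal RNA.

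**Figure D1:**
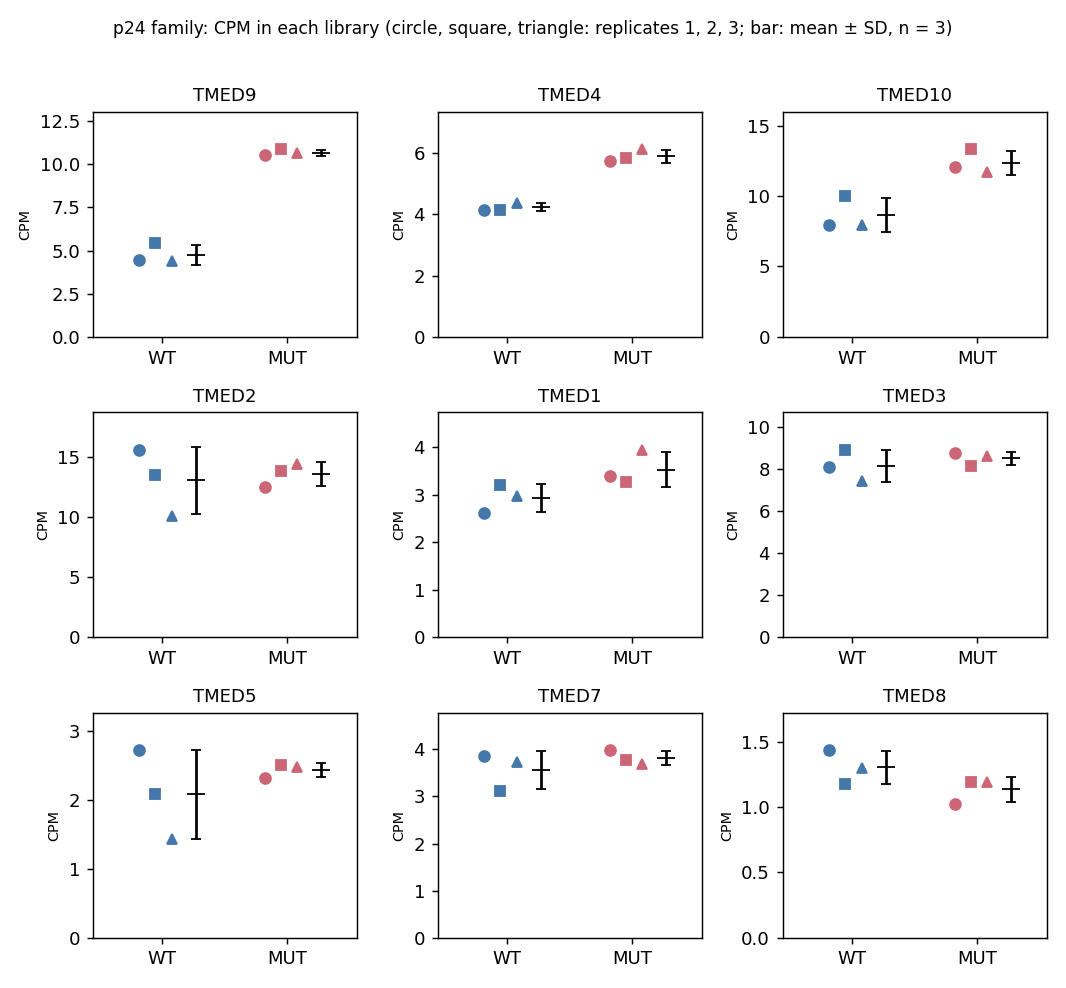
CPM of each of the 9 members (one panel each, vertical axis from 0) in the WT (blue) and MUT (red) libraries, with circles, squares and triangles for replicates 1, 2 and 3 and a bar for the mean ± SD (n = 3). TMED9, TMED4, TMED10 and TMED1 show no overlap between the groups, and TMED9 has the widest gap, from 5.44 to 10.51 CPM.

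Counted over the family, 8 of 9 members had log2 fold changes above 0, where 48.7% of all tested genes did. The members' median was 0.21, or 0.16 without TMED9, against -0.01 for all tested genes. One member, TMED9, was called by edgeR (adjusted p below 0.05), and 0 were called lower. Of all tested genes 1.91% were called, 0.986% higher in MUT and 0.925% lower. Without MUT replicate 2, and without both libraries high in ribosomal RNA, TMED9 was again the 1 member called. The groups did not overlap for 4 members, all higher in MUT, where 12.8% of tested genes were higher without overlap. Nothing is read from these counts, since the comparison itself brought the family forward.

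**Figure D2:**
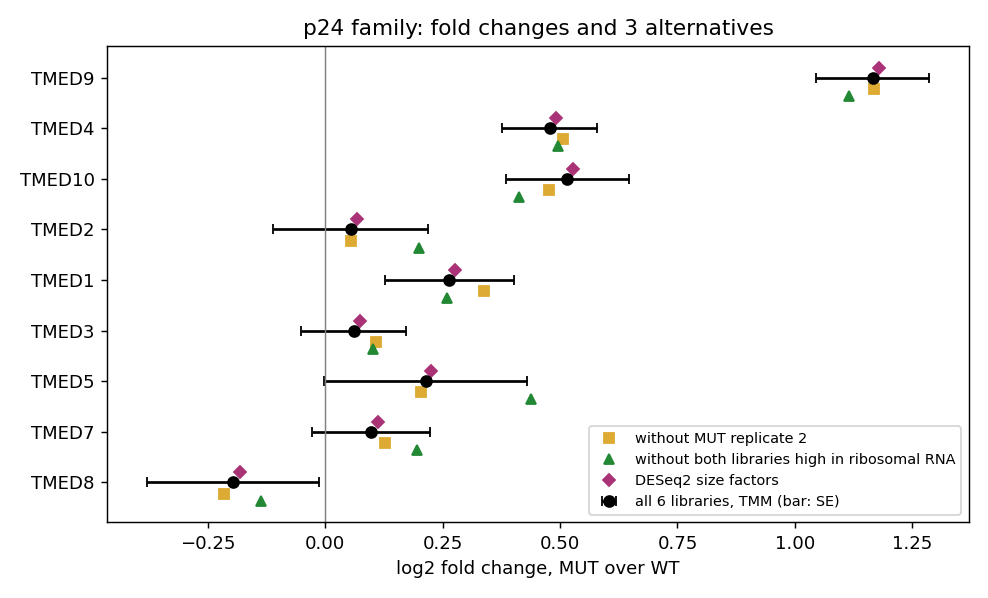
Log2 fold change of MUT over WT for each member with all 6 libraries (black, bar: SE), without MUT replicate 2 (yellow), without both libraries high in ribosomal RNA (green) and with DESeq2's size factors (purple). TMED9 stays between 1.12 and 1.18 under these settings, TMED4 and TMED10 lie between 0.41 and 0.53, and TMED8 alone lies below 0.

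Levels of different members were compared per transcript length, as TPM deposited by the authors to 2 decimals. The small structural RNAs took 86.5% to 93.8% of TPM, so that TPM of the members are low and differ between libraries with that share, and their order was read within each library. In WT, TMED3 (0.91 to 1.94 TPM) and TMED2 (0.71 to 1.65 TPM) led, with TMED3 above TMED2 in 2 of 3 libraries. TMED10, TMED1, TMED9 and TMED4 followed with means from 0.44 to 0.50 TPM, and neighbours among these 4 did not keep 1 order in all WT libraries. TMED4 was above TMED5 (0.20 to 0.32 TPM), TMED5 above TMED7 (0.17 to 0.24 TPM) and TMED7 above TMED8 (0.03 to 0.05 TPM) in each of the 3 WT libraries.

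In MUT, TMED3, TMED2, TMED9, TMED10, TMED4 and TMED1 kept this order in 3 of 3 libraries. The rank of TMED9 by TPM was 5, 4 and 6 in WT replicates 1, 2 and 3, and 3 in every MUT library. The TPM of TMED9 were 0.37, 0.66 and 0.31 in WT and 1.06, 2.33 and 1.28 in MUT. On this scale the highest library was MUT replicate 2 for all 9 members, which is the library with the smallest share of small structural RNA.

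Shares of the family's summed TPM do not depend on how libraries are scaled to one another. TMED9 made up 8.04%, 9.71% and 9.23% of family TPM in the WT libraries and 16.3%, 16.6% and 16.1% in the MUT libraries. The share of TMED3 was 27.2% ± 1.33 in WT and 23.2% ± 1.36 in MUT (SD, n = 3 each), and that of TMED8 0.833% ± 0.085 and 0.553% ± 0.086, both without overlap. Shares of 1 sum are tied, so a larger share of TMED9 by itself lowers those of the other members. A smaller share is therefore not read as a lower level. The log2 fold changes of TMED3 and TMED8 were 0.06 (SE 0.11) and -0.20 (SE 0.18), with CPM that overlapped. The shares of TMED2 (24.6% ± 3.69 and 20.8% ± 1.33), TMED10 (10.0% ± 1.06 and 11.6% ± 0.848), TMED4 (9.14% ± 1.11 and 10.1% ± 0.343), TMED1, TMED5 and TMED7 overlapped between the groups.

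The ratio of TMED9 to its alpha paralog TMED4, in TPM, was 0.949, 1.14 and 0.886 in the WT libraries and 1.63, 1.70 and 1.54 in the MUT libraries. TMED9 was thus near parity with TMED4 in WT and ahead of it in each MUT library. The ratio of TMED9 to TMED10 was 0.902, 0.880 and 0.912 in WT and 1.43, 1.33 and 1.49 in MUT, and that of TMED10 to TMED2 was 0.416 ± 0.0896 in WT and 0.556 ± 0.0537 in MUT (SD, n = 3 each), without overlap. Summed over the 9 genes, CPM was 50.9, 51.6 and 43.6 in WT and 60.2, 62.7 and 62.8 in MUT. Without TMED9 the sums were 46.5, 46.2 and 39.2 in WT and 49.7, 51.9 and 52.2 in MUT.

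**Figure D3:**
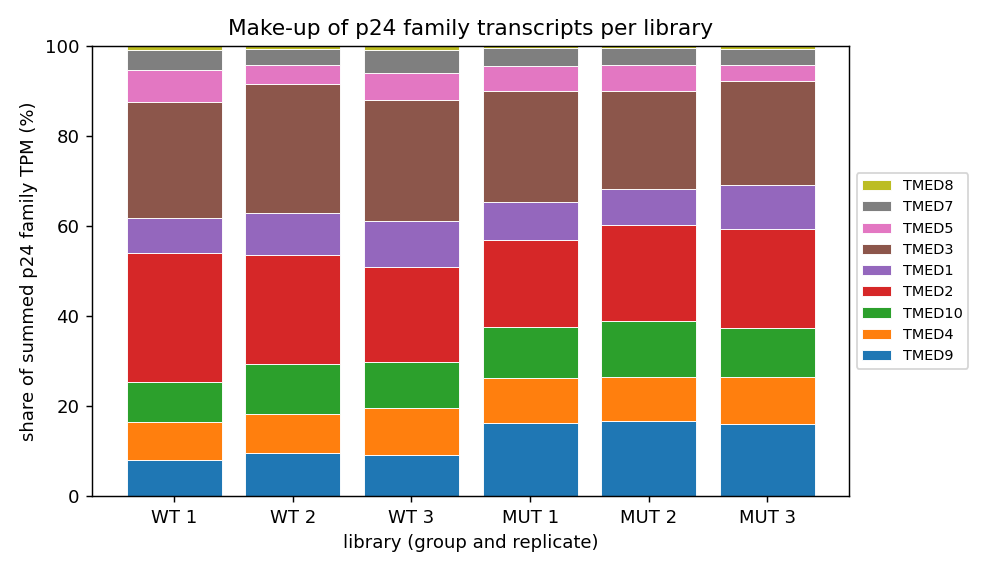
Share of each member in the summed TPM of the family (vertical axis, percent) for each of the 6 libraries. The TMED9 segment at the bottom takes 8.04% to 9.71% in the WT libraries and 16.1% to 16.6% in the MUT libraries, and TMED3 and TMED2 remain the largest segments in each library.

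Counts and FPKM together give the effective transcript length that the authors' quantification used for a gene in a library, an average over its isoforms weighted by their estimated share. For TMED9 it was 2463 to 2476 bases over the 6 libraries, and for TMED2, TMED7 and TMED10 the longest was at most 1.01 times the shortest. TMED5 stood apart, at 1787, 2184 and 1276 bases in WT and 1551, 1656 and 2611 in MUT. The estimated isoform mixture of TMED5 thus differed among replicates of both groups, and its TPM carries that variation, for example in the low 0.28 TPM of MUT replicate 3.

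Rows related to the family were low. TMED6, the remaining gamma gene, had at most 5 counts in a library, TMED10P2 at most 3 and TMED11P 0. The pseudogene TMED10P1 had 8 to 55 counts, beside at least 344 for TMED10. TMED7-TICAM2 had 64 to 77 counts in 4 libraries, 55 in MUT replicate 3 and 4 in WT replicate 3, the library with the fewest TMED7 counts (161).

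The called gene among the 5 nearest tested genes on each side of TMED9 was DDX41, a DEAD-box RNA helicase (chromosome 5, 177511577 to 177516961). DDX41 rose from a mean of 7.52 CPM in WT to 11.97 CPM in MUT (log2 fold change 0.67, SE 0.13, edgeR adjusted p = 0.0374). It ends 75.2 kb from TMED9, and its call was lost without both libraries high in ribosomal RNA (0.59) and without any 1 library other than MUT replicate 2 (0.65 to 0.78). B4GALT7, a galactosyltransferase of proteoglycan synthesis that starts 2.9 kb from TMED9, had a log2 fold change of 0.10 (SE 0.12, adjusted p = 0.696). On the other side FAM193B (-0.02, SE 0.21) and PDLIM7 (0.32, SE 0.12) had edgeR adjusted p-values of 0.968 and 0.175. LOC728554 (0.20, SE 0.54) and LOC100128340 (1.08, SE 0.35), the next tested rows beyond B4GALT7, were not called either (adjusted p = 0.883 and 0.137). LOC728554 turned to -0.96 without MUT replicate 2 and to -0.99 without both libraries high in ribosomal RNA, and was called lower in both fits.

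Of these 10 neighbours of TMED9, the 5 nearest tested genes on each side, 7 had values above 0, and the median of the 10 was 0.17. Called were 1 of these 10, 1 of 10 around TMED4 and 1 of 10 around TMED5, beside 1.91% of all tested genes. Around TMED4 the median of 10 neighbours was 0.15, with the histone variant gene H2AZ2 lower (-0.62, edgeR adjusted p = 0.0319), and around TMED10 it was -0.09, with 0 called. Among the neighbours of the other members, the adaptor gene BCAR3 near TMED5 was called higher (0.67, adjusted p = 0.0366), and the medians ran from -0.10 (TMED5) to 0.15 (TMED3). H2AZ2 and BCAR3 are named because they were called and fall outside the rule for named genes.

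**Figure D4:**
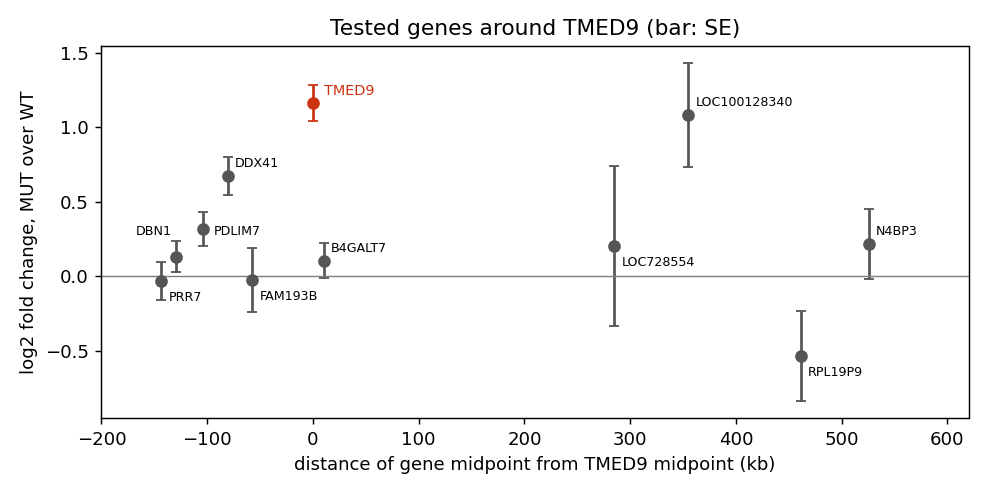
Log2 fold change of MUT over WT (bar: SE) for the 5 nearest tested genes on each side of TMED9, against the distance of each gene's midpoint from that of TMED9 in kb. TMED9 (red, 1.17) lies above DDX41 (0.67) on one side and B4GALT7 (0.10) on the other.

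By centred log2 CPM over the 6 libraries, the profiles nearest to TMED9 among 4247 other protein-coding genes (mean log2 CPM of 2 or more) were PSMC4, VCAN, ALAS1, SDF4 and CDKN1A. Their root mean square distances were 0.046, 0.077, 0.094, 0.112 and 0.121 on the log2 scale. PSMC4, a proteasome ATPase, had 16.6, 19.8 and 15.4 CPM in WT and 37.3, 39.6 and 36.0 CPM in MUT, with WT replicate 2 highest in WT and MUT replicate 2 highest in MUT, as for TMED9. SDF4, a calcium-binding protein of the Golgi lumen, had 4.07, 4.21 and 3.77 CPM in WT and 7.71, 8.40 and 8.13 CPM in MUT. The nearest family member was TMED10, at 0.328 (place 91), followed by TMED4 at 0.368 (place 170), and TMED8 was farthest at 0.705. With 6 libraries in 2 groups, such a distance mostly reads the size of the difference between the groups.

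Other genes of early secretory transport were taken from 5 lists by role, which held 83 genes, 82 of them tested. PIGU and LMAN2L rose and 0 fell, so that 2 of 82 were called, which is near the background of 0.986% called higher and 0.925% called lower among all tested genes in edgeR's test. Of the 82, 53 had values above 0 and the median log2 fold change was 0.12, against -0.01 for all tested genes. In edgeR's test 19 of the 82 had an unadjusted p below 0.05, 17 of them higher. These included 5 of 16 other receptors and 7 of 11 GPI anchor genes, all higher. The share of all tested genes at that threshold is not given here, so nothing is read from these counts or from those per list. Without MUT replicate 2 the called genes were LMAN2 and PIGU, and without both libraries high in ribosomal RNA they were ERGIC1, PIGS and PIGU. Over all tested genes these fits called 1.53% and 1.26% higher and 1.36% and 1.4% lower. DESeq2's test called 6 of the 82 higher and 2 lower, while it called 2.37% of all genes higher and 2.78% lower.

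Among 16 tested genes of the COPII coat and its exit sites, which load p24 proteins into outgoing vesicles, edgeR called 0 and DESeq2 called 0, and 2 had an unadjusted p below 0.05. The median was 0.07. The cargo adaptor SEC24D had the highest value (0.58, SE 0.17, edgeR adjusted p = 0.112), and SEC24A the lowest (-0.21). Among 16 tested genes of the COPI coat and the ARF GTPases that recruit it, 12 were above 0 with a median of 0.19, and edgeR and DESeq2 each called 0 (1 at an unadjusted p below 0.05). The coat subunit COPG1 was highest (0.45, SE 0.12, edgeR adjusted p = 0.0987), while COPE (-0.27) and ARF5 (-0.27) lay below 0. Without overlap between the groups, 2 COPII genes were higher and 0 lower, and 4 COPI genes were higher and 2 lower. Of all tested genes 12.8% were higher and 13.4% lower without overlap.

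Of 16 other cargo and retrieval receptors, LMAN2L, a lectin of the endoplasmic reticulum, rose. It was at 0.608, 0.615 and 0.787 CPM in WT and at 1.27, 1.34 and 1.37 CPM in MUT (log2 fold change 0.995, SE 0.20, edgeR adjusted p = 0.0482). Its adjusted p lay above 0.05 with any 1 library left out, at log2 fold changes of 0.95 to 1.12. Its relative LMAN2, a lectin cargo receptor (chromosome 5, 177331567 to 177351668, on the same stretch as TMED9), had 15.1, 15.0 and 13.5 CPM in WT and 20.8, 20.8 and 19.9 CPM in MUT. The groups lay apart, but the log2 fold change of 0.49 (SE 0.11) missed the threshold (adjusted p = 0.0575). LMAN2 is named after its values were seen, and so are ERGIC1 (0.52, adjusted p = 0.0895) and SURF4 (0.37, adjusted p = 0.137), which also cycle between the endoplasmic reticulum and the Golgi. In this list 5 genes lay higher in all MUT libraries and 2 lower, where 12.8% and 13.4% of tested genes did. The 2 were ERGIC3 (-0.21, edgeR adjusted p = 0.373) and CNIH2 (-0.48, adjusted p = 0.449). The receptors for KDEL retrieval signals, KDELR1 (-0.06), KDELR2 (0.17) and KDELR3 (0.05), were not called, and the list's median was 0.15.

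Of 23 tethers, RAB GTPases and SNAREs of the same route, which act when vesicles dock and fuse, 11 were above 0 and the median was -0.001. In 2 of them every MUT library lay above the WT libraries and in 4 below, where 12.8% and 13.4% of tested genes did. edgeR called 0 (4 at an unadjusted p below 0.05), and DESeq2 called GOSR2, TRAPPC2L and TRAPPC5, GOSR2 higher and the other two lower, beside 2.37% and 2.78% of all genes.

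Of 11 genes that attach or remodel the GPI anchor, 9 had values above 0 with a median of 0.43, and in 7 the MUT libraries all lay above the WT libraries, where 12.8% of tested genes did. PIGU, a subunit of the GPI transamidase, rose from 1.10, 1.08 and 0.995 CPM in WT to 2.98, 2.90 and 3.24 CPM in MUT (log2 fold change 1.51, SE 0.15, edgeR adjusted p = 0.00295). It was the called gene of this list and was also called under each of the 13 alternatives that tested it. PIGU lies on chromosome 20 (34560542 to 34677092), 0.602 Mb from EIF6, the edited gene. An effect of its position was not tested.

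The other transamidase subunits did not pass the test. PIGK had 0.507, 0.681 and 0.440 CPM in WT and 0.985, 1.46 and 1.09 CPM in MUT (log2 fold change 1.10, SE 0.26, edgeR adjusted p = 0.0668). PIGS (0.72, SE 0.21, adjusted p = 0.111) and PIGT (0.51, SE 0.12, adjusted p = 0.0656) also had groups that lay apart. The remaining subunit, GPAA1 (0.15, SE 0.15), overlapped. DESeq2's test called PIGK, PIGS and PIGU higher, 3 of 11 genes beside 2.37% of all genes. Of the remodelling enzymes whose products p24 complexes recognise, MPPE1 had a value of 0.44 (SE 0.16, adjusted p = 0.186) and PGAP1 of -0.14 (SE 0.29, adjusted p = 0.845).

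Of 10 tested genes for GPI-anchored proteins or other proteins known to travel with p24 receptors, the ectonucleotidase NT5E rose, from 2.25 ± 0.329 CPM in WT to 4.35 ± 0.317 CPM in MUT (SD, n = 3 each), with a log2 fold change of 0.94 (SE 0.14, edgeR adjusted p = 0.0192). Its adjusted p lay above 0.05 without any 1 of the libraries other than MUT replicate 2. The complement inhibitors CD59 (0.63, SE 0.14, adjusted p = 0.0557) and CD55 (0.60, SE 0.20, adjusted p = 0.145) had no overlap between the groups but were not called by edgeR, although DESeq2 called CD59. The receptor gene F2RL1, whose product is carried by TMED2, lay lower in all MUT libraries (-0.58, SE 0.14, adjusted p = 0.0726), and TGFA (0.17) and WLS (0.06), whose products have been linked to p24 proteins, overlapped. Of the rest, GPC1 (0.355, edgeR adjusted p = 0.233) lay higher in all MUT libraries, while PLAUR (0.13), PRNP (-0.01) and EFNA1 (-0.32) overlapped. Thus 4 of the 10 were higher without overlap and 1 lower, where 12.8% and 13.4% of tested genes were. In edgeR's test 5 of the 10 had an unadjusted p below 0.05, 4 of them higher. The list's median was 0.15.

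Early secretory genes are induced together when unfolded proteins accumulate in the endoplasmic reticulum. Of 16 target genes and regulators of that response, edgeR called 0 (3 at an unadjusted p below 0.05), and the median was 0.05. DESeq2 called HSP90B1 higher, 1 of the 16, beside 2.37% of all genes called higher. In 4 genes every MUT library lay above the WT libraries, and in 1, XBP1, below them, where 12.8% and 13.4% of all tested genes did. The 4 were the sensor ATF6 (0.57, SE 0.15, edgeR adjusted p = 0.0811), HSP90B1 (0.52, SE 0.13, adjusted p = 0.0666), PDIA4 (0.30, adjusted p = 0.191) and DNAJB9 (0.23, adjusted p = 0.567). ATF6 and HSP90B1 were called higher by edgeR when no filter on low counts was used. That fit called 1195 of 29369 genes, 667 of them higher in MUT. HSPA5, the main chaperone of that compartment, had 10.9 ± 0.334 CPM in WT and 11.8 ± 1.14 CPM in MUT, with an SD over 3 libraries (difference of 0.11 on the log2 scale, SE 0.12, edgeR adjusted p = 0.665). XBP1 (-0.19, adjusted p = 0.401) and HERPUD1 (-0.19, adjusted p = 0.511) lay below 0 without passing the test.

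**Figure D5:**
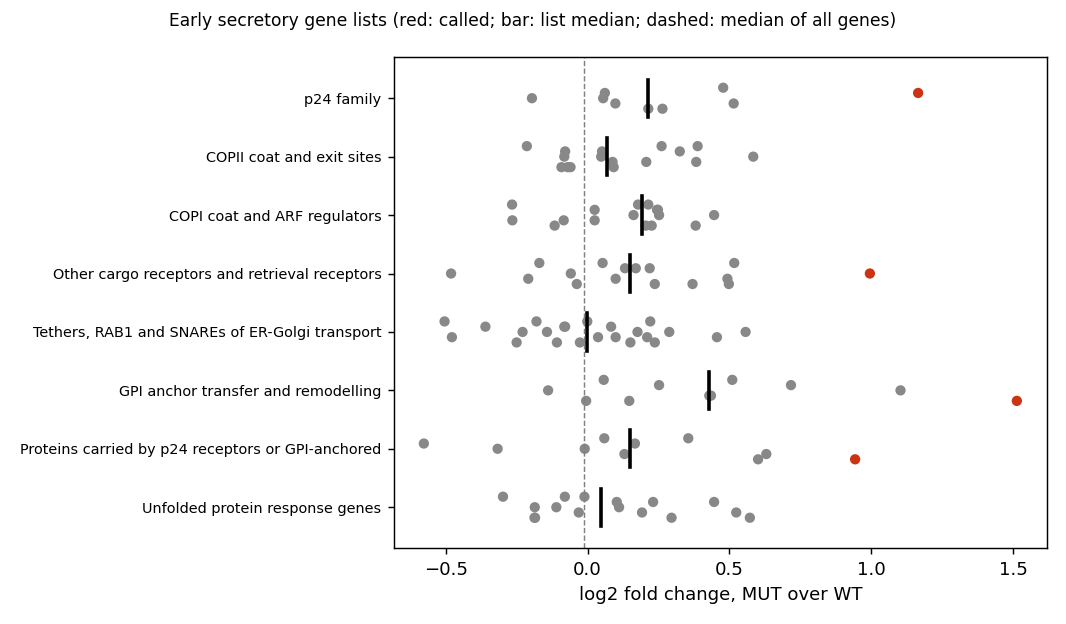
Log2 fold change of MUT over WT for each tested gene (points) of the p24 family and 7 related lists, with genes past the adjusted p of 0.05 in red, list medians as black bars and the median of all tested genes as a dashed line. The red points are TMED9, LMAN2L, PIGU and NT5E, and the GPI anchor list has the highest median, 0.43.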

How the data were processed

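Total RNA-seq of 3 WT and 3 MUT libraries was used, and the ribosome profiling was not used here. Expected counts, FPKM and TPM per gene were deposited as 3 tables. Build hg38 (GRCh38) and the tools RSEM 1.2.28, STAR 2.5.2b, DESeq2 1.42.0 and FastQC 0.12.1 are listed, without roles, in the submitters' processing notes. The gene annotation is not given in the sources used here. The deposited expected counts were all whole, so rounding changed none. The FPKM deposited by the authors gave effective lengths and an alternative. The deposited TPM values gave levels, shares and alternatives.

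In R 4.3.3 with edgeR 4.0.16, genes were kept by filterByExpr (minimum count 10), scaled by TMM and compared by the quasi-likelihood F-test, called at a Benjamini-Hochberg adjusted p below 0.05 over all tested genes. SE is the log2 fold change divided by the square root of F. CPM are relative to TMM-scaled library sizes. Total counts ranged from 53986494 to 87656970. Counting error was taken as 1 over the square root of the count.

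On simulated counts (14606 genes tested), 79.5% of 4-fold changes, 33.3% of 2-fold and 3.39% of 1.5-fold changes were called. Counts of libraries of a group differed beyond sampling noise in every pair. Symbols were matched to RefSeq (GRCh38.p14) for coordinates, 57767 directly and 370 by an older name.

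The members, the lists and the rule for named genes (all members, up to 4 called genes per list, the 3 nearest tested genes on each side of TMED9 and the 5 nearest profiles) were chosen with earlier results of these data known. Alternatives were DESeq2's size factors, library size alone, no filter, DESeq2's Wald test, limma 3.58.1 on log2(FPKM + 1) and on log2 TPM with 1 or 0.1 added (genes at 1 or more in at least 3 libraries), the replicate number as a block, leaving out each library, and leaving out both libraries high in ribosomal RNA.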

Additional observations from a re-analysis of the deposited data

How the results depend on the processing

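TMED9 was called in 12 of 15 alternatives, with log2 fold changes from 0.80 to 1.69, and in each fit that left out 1 library (1.12 to 1.31). The gene was selected on this contrast in these same libraries, so no weight is placed on how often it was called. TMED9 was not called by limma on log2(TPM + 1), log2(TPM + 0.1) or log2(FPKM + 1), where 3, 3 and 7 members were tested and 0 were called. It reached 1 TPM in every MUT library (1.06 to 2.33) and in no WT library (0.31 to 0.66). It thus passed the TPM filter only through MUT, and nothing is read from its 2 TPM fits. The lowest value, 0.80, came from log2(TPM + 1). The count of called members was 2 with DESeq2's size factors (TMED4 added), and 2 without a filter and with DESeq2's Wald test (TMED10 added). The sign changed for TMED2 without WT replicate 3 (-0.089, against up to 0.22 with another library left out) and for TMED8 by library size alone (0.38), where the median of all genes lay at 0.54. Relative to that median TMED8 lay at -0.16 and TMED9 at 1.16. On the log2(TPM + 1), log2(TPM + 0.1) and log2(FPKM + 1) scales the median of all genes lay at 0.365, 0.49 and 0.33.

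The 283 called genes became 108 by library size alone (95 higher in MUT), 1195 without a filter, 760 with DESeq2's test, and 21, 10 and 13 on the log2(TPM + 1), log2(TPM + 0.1) and log2(FPKM + 1) scales, where fewer genes were tested. With 1 library left out the count ran from 27 (without WT replicate 2) to 442 (without MUT replicate 2). It was 30 without WT replicate 1, 61 without WT replicate 3 and 40 without either of the other MUT replicates. The 2 called early secretory genes became 1 by library size alone and on the log2(FPKM + 1) scale, 6 without a filter, 8 with DESeq2's test, 0 on both TPM scales, and 1 to 2 with 1 library left out. The cause of these shifts was not tested.

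The place of TMED9 in the order of mean TPM moved from 4, tied with TMED1, in WT to 3 in MUT with all libraries, a move of 1, and by 1 to 3 with 1 library left out (2 without WT replicate 1, 3 without WT replicate 2). FAM193B, near 0, turned to 0.53 by library size alone, 0.26 on the log2(FPKM + 1) scale, 0.15 without both libraries high in ribosomal RNA, 0.19 without WT replicate 3 and 0.14 without MUT replicate 2. LOC728554 turned to -0.18 with the block, -0.99 without both libraries high in ribosomal RNA and -0.96 without MUT replicate 2, against up to 0.58 with another library left out, and was called lower in both fits without MUT replicate 2.

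With the replicate number as a block, 296 genes, 1 member (TMED9) and 1 early secretory gene (PIGU) were called, so the block removed the call of LMAN2L, and it added that of CD59. Same-numbered libraries did not deviate together across genes (correlations from -0.689 to 0.408 over 3 pairs, 1 of them above 0.1), so the numbers were not taken as pairs. Depth limits the smaller members: TMED8 had 56 to 116 counts per library.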
